A study of Mus musculus with 18 samples.

Results

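Guide e12.4 is a guide RNA against Jmjd1c, and its 3 libraries are compared here with the 3 libraries of a control guide against Renilla, a luciferase gene that mouse cells lack. All libraries are poly(A) RNA of mouse leukaemia cells in culture, with the nuclease Cas9 and the fusion oncoprotein MLL-AF9. The source is a primary leukaemia, and the medium held 10% serum and 10 ng/ml mouse interleukin-3. The e12.4 cells, the Renilla cells and every other group share the fusion, the nuclease and the cytokine, so the groups differ by guide alone as far as the labels say. The series holds 18 libraries in 6 groups of 3: e12.4, the Jmjd1c guides e12.3, e20.1 and e21.1, mock, and Renilla. The submitters describe the guides as directed at the jumonji or zinc finger domains of the protein, without saying which guide cuts where. The sources used here do not give what mock received, how long after editing RNA was taken, or whether the libraries of a group come from separate cultures. P-values therefore measure the spread between libraries, which may be technical. Of the 23899 genes in the table, 11550 averaged 1 FPKM or more over the 18 libraries and were tested. FPKM counts fragments per kilobase of transcript, scaled to the depth of the library.

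Jmjd1c encodes a large nuclear protein with a jumonji domain, the fold of the histone demethylases, and is related to the H3K9 demethylases Kdm3a and Kdm3b. MLL-AF9 holds myeloid progenitors in an immature state through genes such as Hoxa9 and Meis1, and interleukin-3 keeps such cells dividing through the shared receptor chain Csf2rb, JAK2 and STAT5. As granulocyte and monocyte progenitors mature, they pass through a promyelocyte stage that fills primary granules with Mpo, elastase and cathepsin G, and later switch on secondary granule proteins or monocyte surface receptors and lysosomal enzymes.

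The e12.4 and Renilla libraries had an estimated 30.2 to 38.8 M reads each, so that 60 to 78 reads lie behind 1 FPKM of a 2 kb transcript. The e12.4 libraries were the most alike of the 4 guide groups: the median gene had an SD of 0.103 on the log2(FPKM + 1) scale, against 0.187 to 0.199 in the other guide groups. Mock libraries had 0.0998 and Renilla libraries 0.157. On the first principal component of all libraries (26.2% of the variance) the e12.4 libraries stood at 15.3 to 19.2, against -21.7 to -19.5 for mock and -34.96 to -14.27 for Renilla. Renilla replicate 1 is the lowest of these, and it had less mitochondrially encoded RNA than the other libraries. The second component (21.9%) set apart e12.3 replicate 3 and e21.1 replicate 3, at 41.1 and 49.9, where e12.4 libraries lay between -3.54 and -2.44. Those 2 libraries enter the shared estimate of the spread, so counts without them are given where they matter.

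Jmjd1c (chr10:67096125-67256326, + strand, GRCm38) stood at 59.7, 74.4 and 70.9 FPKM with e12.4, against 64.2, 85.4 and 85.4 FPKM with Renilla, and mock had 71.8, 77.1 and 74.5 FPKM. The groups overlapped, and the log2 fold change of -0.19 did not pass the test (SE 0.17, adjusted p = 0.58; exact two-sided permutation p = 0.3, where 0.1 is the smallest p that 3 against 3 libraries can give). An edited gene can still be transcribed, so this level says nothing of how many copies were cut. The fusion's target Hoxa9 had 80.04, 89.2 and 93.4 FPKM with e12.4, against 64.2, 99.2 and 108 FPKM with Renilla, and Meis1 had 36.8, 37.5 and 35.04 FPKM with e12.4, against 28.8, 38.7 and 38.3 FPKM with Renilla. Levels of both overlapped between the groups.

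A limma-trend model called 819 genes with e12.4 against Renilla at an adjusted p under 0.05, which is 7.09% of those tested. Of these, 643 were higher with e12.4 (5.57% of tested genes) and 176 lower (1.52%). An unadjusted p under 0.05 was reached by 2312 genes, where 578 would do so by chance. Rises were the larger changes: the median log2 fold change was 0.81 over the genes called higher, -0.48 over those called lower and -0.03 over all genes tested. Among calls of less than 0.5 log2 units, 88 were higher and 95 lower. Between 0.5 and 1 they numbered 322 higher and 68 lower, between 1 and 2 192 higher and 10 lower, and at 2 or more 41 higher and 3 lower. Same-numbered e12.4 and Renilla libraries deviated together, and with the replicate number as a block 1196 genes were called (834 higher, 362 lower); the blocked value is given below where it changes a call or a count. In each called gene the 3 e12.4 and the 3 Renilla libraries did not overlap. That alone is common, since e12.4 lay wholly above Renilla in 17.1% of tested genes and wholly below in 16.8%. Changes are differences of log2(FPKM + 1), which understate the change of low genes. In a bulk sample, fewer cells of a type and less RNA per cell cannot be told apart.

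**Figure D1:**
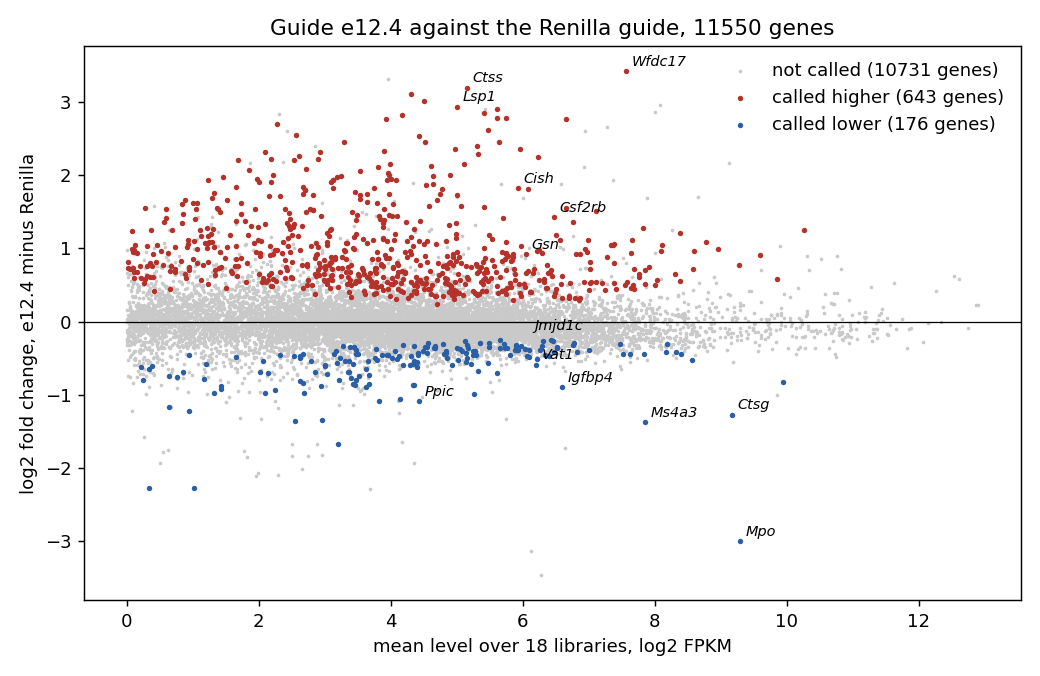
Each point is 1 of the 11550 genes tested, at its mean level over the 18 libraries (log2 FPKM, horizontal axis) and its log2 fold change of e12.4 minus Renilla (vertical axis). The 643 genes called higher reach past 3 log2 units, while most of the 176 called lower lie within 1 unit of zero and Mpo is the lowest of them.

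Mpo had the largest fall of all called genes, and the only other called falls of 2 log2 units or more were in 2 predicted gene models. Mpo, the myeloperoxidase that makes hypochlorous acid (chr11:87793581-87804413, + strand), fell to 182, 138 and 133 FPKM with e12.4, against 1376, 1158 and 1084 FPKM with Renilla (log2 fold change -2.99, SE 0.44, adjusted p = 0.00044). Its mean was 151 ± 26.96 FPKM with e12.4 and 1206 ± 152 FPKM with Renilla (SD, n = 3 each), 7.98-fold higher in Renilla. The mock libraries, at 1246, 1164 and 1119.6 FPKM, lay among the Renilla ones. Ctsg, the serine protease cathepsin G, had 411, 353 and 315 FPKM with e12.4, against 1019, 811 and 778 FPKM with Renilla (log2 fold change -1.27, adjusted p = 0.0027). Ms4a3, a membrane protein of granulocyte and monocyte progenitors, had 145, 132 and 141 FPKM with e12.4, against 432, 355 and 310.1 FPKM with Renilla (log2 fold change -1.37, adjusted p = 0.0021). All 3 genes stayed abundant with e12.4, and for each the lowest Renilla library was well above the highest e12.4 library.

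The named falls are the 12 largest among called genes with a symbol and a mean of 5 FPKM or more, and the rest of them came from varied functions. Some falls of like size were not called and are not among the 12: Mgl2, a galactose-binding lectin of macrophages, had 9.78, 8.76 and 8.51 FPKM with e12.4, against 41.7, 36.2 and 33.4 FPKM with Renilla (log2 fold change -1.92, adjusted p = 0.1). Slc28a2, a sodium-driven nucleoside transporter, fell to 3.76, 3.13 and 4.13 FPKM with e12.4, against 14.1, 13.7 and 13.5 FPKM with Renilla (log2 fold change -1.67, adjusted p = 0.019). Bace1, the beta-secretase protease, had 2.92, 2.16 and 3.32 FPKM with e12.4, against 7.56, 7.85 and 10.8 FPKM with Renilla (log2 fold change -1.35, adjusted p = 0.0026). Adgrl4, an adhesion G protein-coupled receptor, had 4.79, 3.81 and 4.29 FPKM with e12.4, against 13.3, 11.5 and 12.2 FPKM with Renilla (log2 fold change -1.34, adjusted p = 0.0051). Ppic encodes cyclophilin C, Cgnl1 a junction protein, Pak1 a kinase downstream of Rac and Cdc42, Psph the phosphatase that completes serine synthesis, and Immp2l a mitochondrial inner membrane protease. Ppic had 15.4, 13.4 and 15.2 FPKM with e12.4, against 33.7, 33.1 and 29.95 FPKM with Renilla (log2 fold change -1.09, adjusted p = 0.00019). Pak1 had 13.4, 10.4 and 9.25 FPKM with e12.4, against 37.2, 19.4 and 18.1 FPKM with Renilla (log2 fold change -1.05, adjusted p = 0.0086), with Renilla replicate 1 far above the other Renilla libraries. Cgnl1, Psph and Immp2l had log2 fold changes of -1.08, -0.98 and -0.97. Igfbp4, a secreted binding protein of insulin-like growth factors (chr11:99041244-99054392, + strand), had 68.03, 66.4 and 64.6 FPKM with e12.4, against 148, 117 and 110.2 FPKM with Renilla (log2 fold change -0.89, adjusted p = 0.00013), and its e12.4 libraries agreed within a few FPKM. Leaving out a single library raised the adjusted p past 0.05 for Slc28a2 (up to 0.08), Cgnl1 (up to 0.092), Pak1 without e12.4 replicate 3 (0.051), Psph (up to 0.15) and Immp2l (up to 0.19).

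The 12 largest rises, chosen in the same way, held 4 paired receptors, secreted proteins, proteases and a transcription factor among others. Wfdc17, a secreted antiprotease-like protein of activated macrophages (chr11:83703991-83706268, + strand), had 291, 271 and 279 FPKM with e12.4, against 26.7, 23.98 and 25.2 FPKM with Renilla (log2 fold change 3.42, adjusted p = 4.5e-05), and its mean was 11.1-fold higher with e12.4. Ctss, the lysosomal protease cathepsin S that trims the MHC class II invariant chain (chr3:95526786-95556403, + strand), had 49.1, 42.4 and 42.98 FPKM with e12.4, against 4.97, 3.57 and 3.58 FPKM with Renilla (log2 fold change 3.19, SE 0.21, adjusted p = 3.5e-07). Its level was low in the control cells, with mock at 4.02, 3.11 and 2.91 FPKM. Lsp1, an actin-binding protein of leukocytes, had 37.7, 42.4 and 47.9 FPKM with e12.4, against 3.98, 5.19 and 4.94 FPKM with Renilla (log2 fold change 2.94, adjusted p = 8.5e-07). Ccl3, a chemokine that attracts monocytes and neutrophils, had 65.7, 72.7 and 64.1 FPKM with e12.4, against 5.98, 9.91 and 12.1 FPKM with Renilla (log2 fold change 2.77, adjusted p = 2.9e-06). Adam8, a membrane metalloprotease, had 26.4, 30.7 and 35.8 FPKM with e12.4, against 2.08, 3.45 and 5.53 FPKM with Renilla (log2 fold change 2.83, adjusted p = 0.00089). The zinc finger factor Egr1, an immediate-early gene used in macrophage development, was under 1 FPKM in each Renilla library and rose to 12.8, 7.49 and 5.37 FPKM with e12.4 (log2 fold change 2.54, adjusted p = 1.0e-05). Of the other named rises, Lilra6, Lilr4b, Lilrb4a and Pira2 are paired immunoglobulin-like receptors described below with their family. Serpina3g, a protease inhibitor, had 61.2, 68.5 and 66.01 FPKM with e12.4, against 7.73, 9.30 and 7.53 FPKM with Renilla (log2 fold change 2.85, adjusted p = 0.0026). S100a4, a calcium-binding protein, had 72.2, 62.4 and 63.8 FPKM with e12.4, against 10.2, 8.79 and 11.1 FPKM with Renilla, and although these groups are far apart its call (adjusted p = 0.039) was lost without any e12.4 or Renilla library, at adjusted p up to 0.11.

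**Figure D2:**
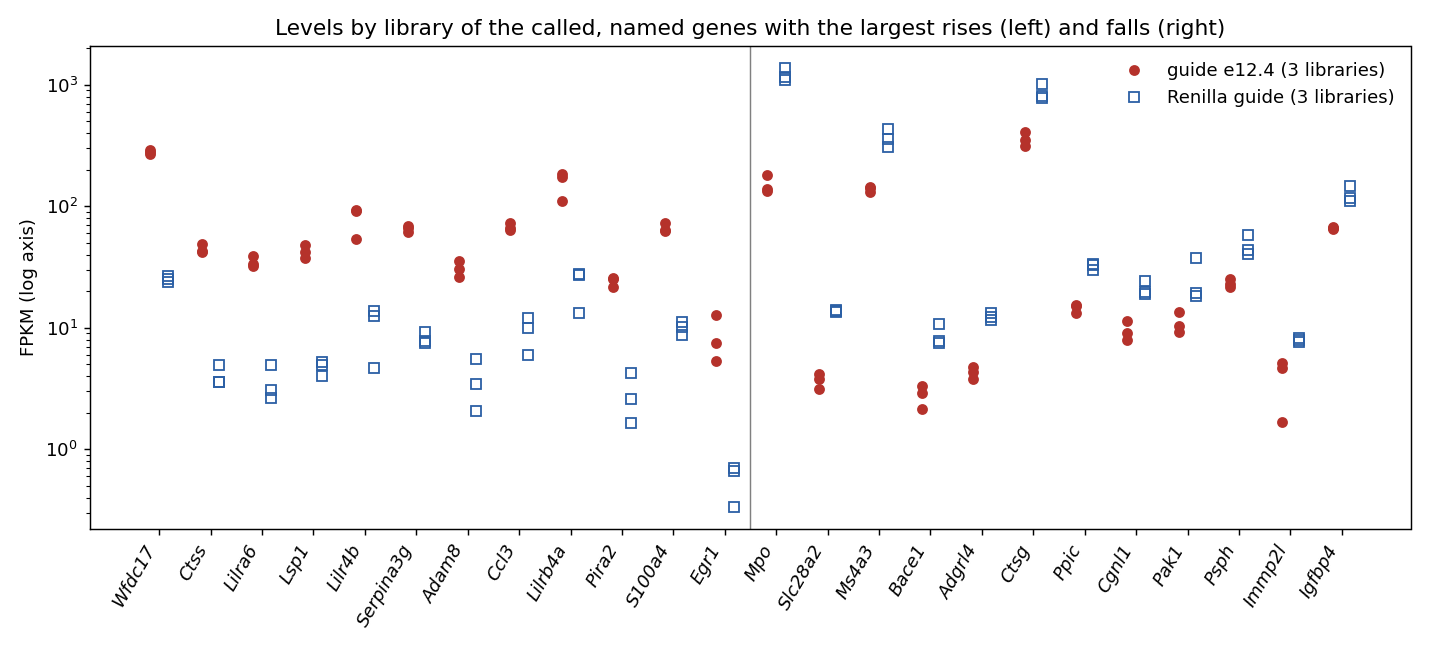
Level in FPKM (log axis) of the 12 called and named genes with the largest rises (left of the line) and the 12 with the largest falls among called and named genes (right of it), with filled circles for the 3 e12.4 libraries and open squares for the 3 Renilla libraries. No gene has overlapping groups, and Mpo shows the widest gap among the falls, at 182, 138 and 133 FPKM with e12.4 against 1376, 1158 and 1084 FPKM with Renilla.

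The promoters of Ctss and Mpo are shown because these genes hold the rise with the smallest p and the largest fall. They are RefSeq sequences of GRCm38.p6, plus strand, from 250 bases before to 50 bases after the annotated start site, which is counted as 0. Capitals mark GAGGAAGT or its reverse complement ACTTCCTC, the core letters bound by PU.1 (gene Spi1), an ETS factor of all myeloid cells, searched on both strands.

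Ctss chr3:95526536-95526835: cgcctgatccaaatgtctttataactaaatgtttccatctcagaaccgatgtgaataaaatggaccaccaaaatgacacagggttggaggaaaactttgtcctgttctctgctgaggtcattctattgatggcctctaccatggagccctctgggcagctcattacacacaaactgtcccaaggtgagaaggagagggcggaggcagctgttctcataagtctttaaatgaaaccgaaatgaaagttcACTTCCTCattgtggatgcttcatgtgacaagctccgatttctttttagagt

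Mpo chr11:87793534-87793833: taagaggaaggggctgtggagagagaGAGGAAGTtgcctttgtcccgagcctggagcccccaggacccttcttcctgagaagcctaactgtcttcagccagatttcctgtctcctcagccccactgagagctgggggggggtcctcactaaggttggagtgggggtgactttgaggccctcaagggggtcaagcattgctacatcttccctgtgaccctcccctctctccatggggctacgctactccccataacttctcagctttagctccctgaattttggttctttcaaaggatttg

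In Ctss the match spans the start site, from -2 to 5, and in Mpo it lies at -224 to -217. These positions count from the RefSeq start site. For Mpo the GENCODE gene start given above, 87793581, differs from it and lies upstream of it within the window. The letters occur in 3.69% of the 27025 genes with a promoter sequence and in 4.05% of the 8454 tested genes with one. They occur in 9.11% of 483 genes called higher and in 5.8% of 138 called lower. A gene counts once, with a match if any of its promoters holds the letters. A match is a description of the letters, not a measured binding site, and Spi1 itself had 152, 162 and 180.3 FPKM with e12.4, against 161, 169 and 177 FPKM with Renilla, with overlapping groups.

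Moderate changes, of 0.5 to 1 log2 units, made up 390 of the 819 calls, and the 10 with the smallest p in each direction are given here. Gsn, gelsolin, which severs and caps actin filaments, had 82.4, 76.6 and 78.8 FPKM with e12.4, against 42.03, 41.1 and 41.2 FPKM with Renilla (log2 fold change 0.92, SE 0.075, adjusted p = 2.5e-06). Arhgef3, an exchange factor for RhoA, had 34.6, 35.4 and 34.6 FPKM with e12.4, against 20.2, 19.8 and 18.8 FPKM with Renilla (log2 fold change 0.80, adjusted p = 7.0e-06). Cited2, a coregulator that binds CBP and p300, had 156, 163 and 154 FPKM with e12.4, against 86.1, 94.04 and 87.4 FPKM with Renilla (log2 fold change 0.81, adjusted p = 1.7e-05). In each of these the libraries of a group agreed closely. Several of the others sit at the cell surface. Selplg, the P-selectin ligand, had 155, 133 and 138 FPKM with e12.4, against 75.5, 67.95 and 78.9 FPKM with Renilla (log2 fold change 0.93, adjusted p = 7.1e-05). Ly6e, a GPI-anchored surface protein, had 972, 864 and 838 FPKM with e12.4, against 480.2, 480.2 and 458 FPKM with Renilla (log2 fold change 0.91, adjusted p = 5.3e-05). Cd24a, a heavily glycosylated surface protein, had 152, 149.7 and 142 FPKM with e12.4, against 82.6, 70.1 and 69.7 FPKM with Renilla (log2 fold change 0.99, adjusted p = 7.1e-05). Fxyd5, a regulator of the sodium pump, the integrin chain Itgb5, the focal adhesion kinase relative Ptk2b and the G protein subunit Gng2 rose by 0.97, 0.88, 0.83 and 0.92 log2 units. None of these 10 rises lost its call under any alternative tried.

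The moderate falls came from other functions. Vat1, a vesicle and mitochondrial outer membrane protein, had 62.5, 58.8 and 61.6 FPKM with e12.4, against 91.8, 94.4 and 90.3 FPKM with Renilla (log2 fold change -0.59, SE 0.073, adjusted p = 9.7e-05). Cracr2b, a regulator of store-operated calcium channels, had 13.97, 14.4 and 15.5 FPKM with e12.4, against 26.8, 26.2 and 28.9 FPKM with Renilla (log2 fold change -0.86, adjusted p = 0.00044). Suv39h2, a methyltransferase that sets the H3K9 trimethyl mark, had 9.18, 8.43 and 8.89 FPKM with e12.4, against 15.4, 12.8 and 12.9 FPKM with Renilla (log2 fold change -0.57, adjusted p = 0.0014). Ttc3, a ubiquitin ligase, had 8.10, 7.41 and 8.66 FPKM with e12.4, against 13.7, 13.3 and 13.7 FPKM with Renilla (log2 fold change -0.69, adjusted p = 0.0011). Regulators of actin were also among them: Abi2, a subunit of the WAVE complex, had 10.3, 9.71 and 9.55 FPKM with e12.4, against 17.6, 15.8 and 14.7 FPKM with Renilla (log2 fold change -0.64, adjusted p = 0.0035). Actn1, the filament cross-linker alpha-actinin, had 8.08, 8.88 and 7.63 FPKM with e12.4, against 14.1, 15.9 and 14.1 FPKM with Renilla (log2 fold change -0.77, adjusted p = 0.0041). Hdhd2, Inka1, an inhibitor of the kinase Pak4, and Fbxl19, an F-box protein that binds CpG DNA, changed by -0.70, -0.84 and -0.53. With mock in place of Renilla as the control, Inka1 and Fbxl19 lost their calls (Fbxl19 at adjusted p = 0.17).

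Genes were next read by pathway, as counts of called members beside the 5.57% of tested genes called higher and the 1.52% called lower, and as medians beside -0.03 over all genes. Those shares are of the main fit, and counts from other fits have other shares beside them. Of the same 11550 genes, the replicate block called 834 higher and 362 lower. Without the replicate 3 libraries of e12.3 and e21.1, 1016 were called higher and 526 lower. Of 13 tested transcription factors of myeloid fate, 5 rose and 0 fell. Besides Egr1, these were Irf8, a factor of monocytes and dendritic cells, Nr4a1, an orphan nuclear receptor, the inhibitor Id2, and Runx1. Irf8 had 38.5, 42.4 and 36.3 FPKM with e12.4, against 10.6, 11.1 and 11.4 FPKM with Renilla (log2 fold change 1.73, adjusted p = 0.00027). Runx1 had 38.7, 37.6 and 32.7 FPKM with e12.4, against 14.7, 22.9 and 20.3 FPKM with Renilla (log2 fold change 0.90, adjusted p = 0.004). Nr4a1 had 4.43, 4.86 and 4.32 FPKM with e12.4, against 0.649, 1.27 and 1.12 FPKM with Renilla, and Id2 had 2.74, 3.11 and 3.02 FPKM with e12.4, against 0.5, 0.767 and 0.925 FPKM with Renilla. All 5 calls held without each single library. Gfi1, a repressor needed for neutrophil development, was called lower with the replicate block (adjusted p = 0.029).

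The monocyte and macrophage list had 11 rises among 17 tested genes, no falls and a median log2 fold change of 1.11. Csf1r, the receptor of the macrophage growth factor, had 10.7, 12.6 and 10.3 FPKM with e12.4, against 2.04, 2.36 and 2.33 FPKM with Renilla (log2 fold change 1.91, adjusted p = 4.8e-05). Cd68, a lysosomal membrane protein of macrophages, had 23.98, 22.5 and 21.4 FPKM with e12.4, against 5.997, 8.83 and 10.3 FPKM with Renilla (log2 fold change 1.36, adjusted p = 0.00086). Lyz2, myeloid lysozyme, had 235, 237 and 265 FPKM with e12.4, against 122, 103 and 114 FPKM with Renilla (log2 fold change 1.11, adjusted p = 0.0025). The rises thus span low and high levels. Adgre1, which encodes F4/80, had 70.4, 61.8 and 64.1 FPKM with e12.4, against 32.2, 36.1 and 33.3 FPKM with Renilla (log2 fold change 0.93, adjusted p = 0.0006), and Lgals3, galectin-3, had 113, 146 and 149 FPKM with e12.4, against 29.5, 48.8 and 64.6 FPKM with Renilla (log2 fold change 1.55, adjusted p = 0.0051). Tlr2 and Cybb also rose, by 1.74 and 1.54 log2 units. Itgam, the CD11b integrin chain (0.97), and Mpeg1, perforin-2 (1.17), were called with all libraries and lost that call in most of the fits that left out a library. The summed level of the list was 1635 to 1669 FPKM in e12.4 libraries, against 1180.2 to 1332 FPKM in Renilla libraries.

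Granulocyte genes went in both directions. Of 12 primary granule genes, 4 fell and none rose, with a median of -0.50. Beside Mpo, Ctsg and Ms4a3, the protease gene Prtn3 fell to 732, 656 and 684 FPKM with e12.4, against 1238, 1179 and 1241 FPKM with Renilla (log2 fold change -0.82, adjusted p = 0.021), a call lost without any single library (adjusted p up to 0.087). Elane, neutrophil elastase, had 642, 540.2 and 555 FPKM with e12.4, against 1345, 1060.3 and 1083 FPKM with Renilla, and with an adjusted p of 0.18 it was not called. The list's median was -0.26 without Renilla replicate 1. Of 15 secondary granule and late neutrophil genes, 4 rose and none fell, with a median of 1.00. Olfm4, a secretory granule glycoprotein, had 59.7, 65.6 and 54.4 FPKM with e12.4, against 9.41, 9.63 and 12.6 FPKM with Renilla (log2 fold change 2.40, adjusted p = 0.0032). Hp, haptoglobin, had 665, 636 and 607 FPKM with e12.4, against 385, 299.9 and 285 FPKM with Renilla (log2 fold change 0.99, adjusted p = 0.0051). Mmp8, the neutrophil collagenase, had 3.39, 3.98 and 4.75 FPKM with e12.4, against 0.191, 0.369 and 0.273 FPKM with Renilla (log2 fold change 1.97, adjusted p = 5.9e-05). Padi4, which citrullinates histones, was called at 1.44 with all libraries and not without some of them (adjusted p up to 0.14). Ngp, a secondary granule protein, had 83.5, 93.2 and 87.98 FPKM with e12.4, against 23.4, 24.3 and 33.7 FPKM with Renilla and was not called (adjusted p = 0.08), although the groups were far apart. With the replicate block the late neutrophil list had 7 rises, the added ones being Ngp (adjusted p = 0.017), Ly6g and Cxcr2.

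**Figure D3:**
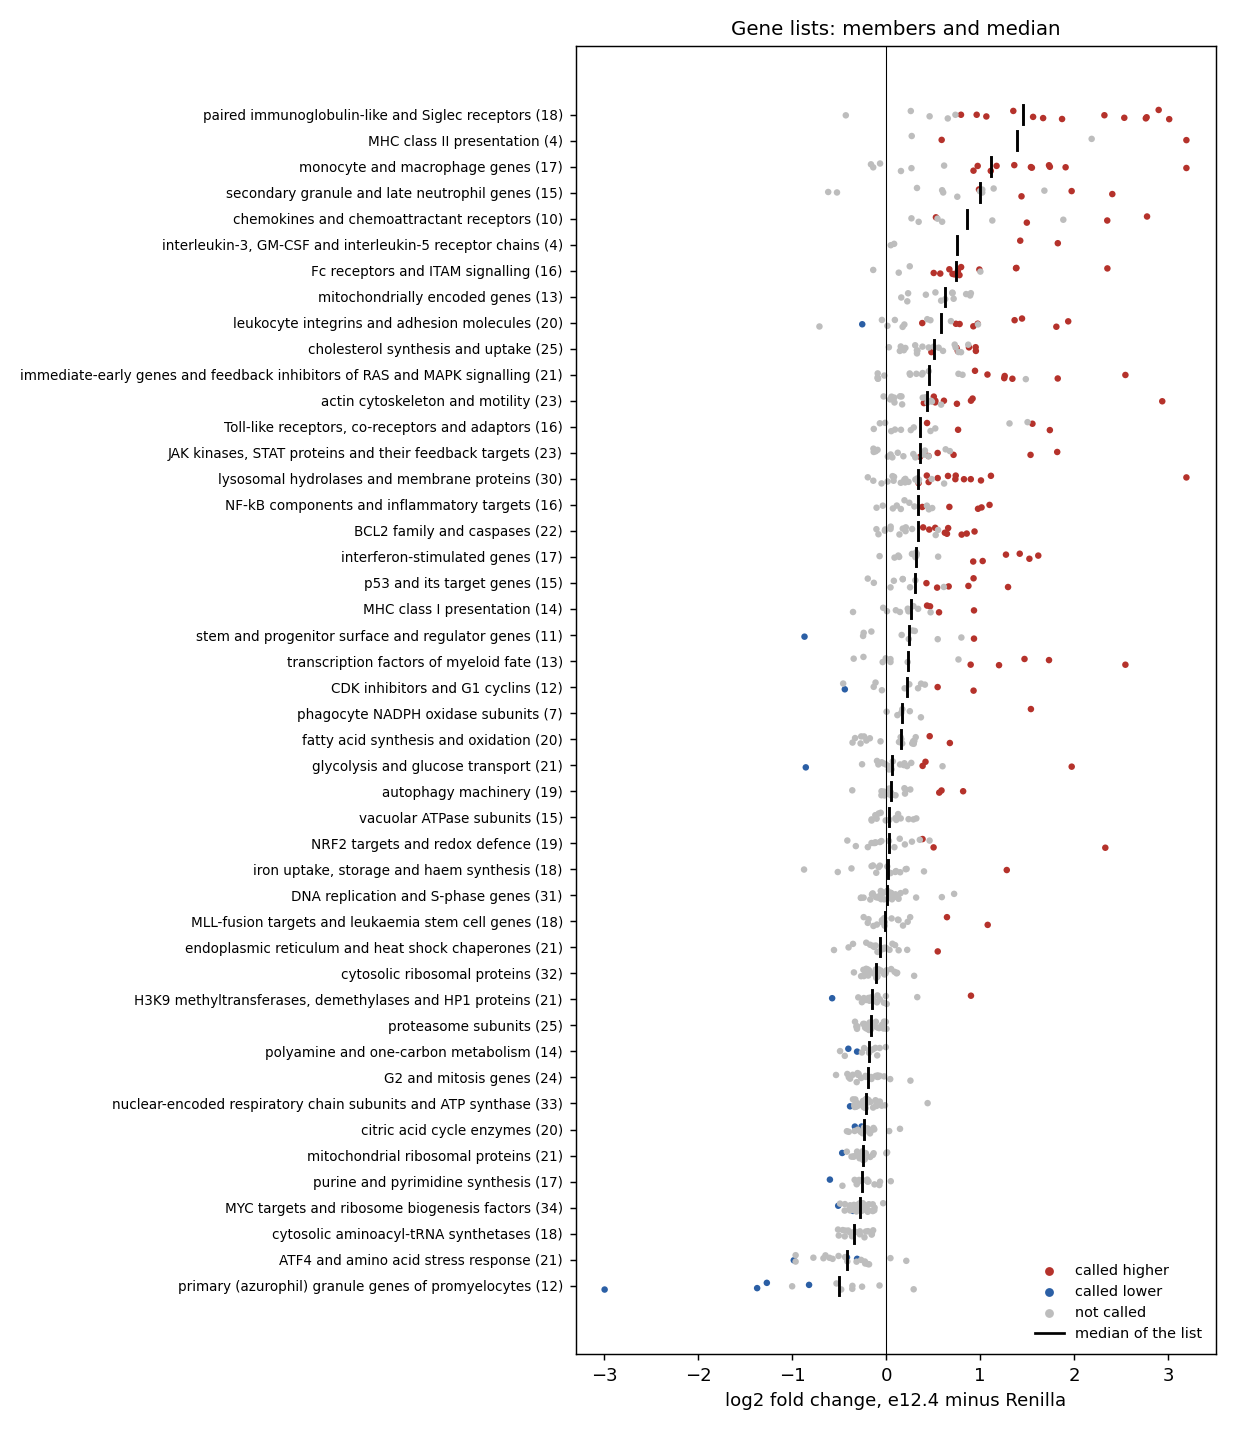
Each row is a gene list with the number of tested members in brackets, each point a member's log2 fold change of e12.4 minus Renilla (red called higher, blue called lower, grey not called), and each bar the list's median. Receptor and monocyte lists lie right of zero, with medians of 1.46 and 1.11, and the primary granule and ATF4 lists lie left of it, with medians of -0.50 and -0.42.

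Surface receptors of phagocytes had the highest share of rises. Of 18 paired immunoglobulin-like and Siglec receptors, 13 rose and none fell, with a median of 1.46. Lilrb4a, an inhibitory receptor with ITIM motifs, had 111, 186 and 175 FPKM with e12.4, against 13.2, 27.98 and 27.3 FPKM with Renilla (log2 fold change 2.77, adjusted p = 0.00014). Its close copy Lilr4b had 53.4, 92.4 and 90.6 FPKM with e12.4, against 4.64, 12.43 and 13.9 FPKM with Renilla, Lilra6 had 33.5, 32.3 and 39.02 FPKM with e12.4, against 2.65, 3.07 and 4.94 FPKM with Renilla and Pira2 had 21.5, 25.6 and 24.98 FPKM with e12.4, against 1.66, 2.60 and 4.21 FPKM with Renilla. Reads of such near-identical genes can be split between them in quantification, so their separate levels are uncertain. Pirb, the main inhibitory member, had 29.4, 34.2 and 37.3 FPKM with e12.4, against 3.32, 4.89 and 7.31 FPKM with Renilla (log2 fold change 2.53, adjusted p = 0.00037). The CD300 proteins Cd300lb and Cd300lf rose by 1.67 and 1.87 log2 units, the sialic acid receptor Siglece by 1.35, and Sirpa, which binds CD47, by 0.96. Leaving out single libraries kept 11 calls each time, the losses being Pilrb1 and Clec4n (adjusted p up to 0.1 and 0.12).

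Fc receptors and the ITAM pathway, through which they signal, had 12 rises among 16 tested genes and no falls, with a median of 0.74. Clec7a, the beta-glucan receptor Dectin-1, had 43.8, 49.8 and 40.97 FPKM with e12.4, against 7.18, 6.93 and 10.1 FPKM with Renilla (log2 fold change 2.35, adjusted p = 0.00014). The adaptor Tyrobp (DAP12) had 731, 669.8 and 671 FPKM with e12.4, against 372, 426 and 409 FPKM with Renilla (log2 fold change 0.78, adjusted p = 0.002). The kinases followed at moderate size: Syk had 61.9, 67.4 and 67.7 FPKM with e12.4, against 38.3, 40.3 and 41.1 FPKM with Renilla (log2 fold change 0.71, adjusted p = 0.0026). Lyn, a kinase of the Src family, rose by 0.73 log2 units, and Fcgr3, an activating receptor for IgG, by 0.80. Without e12.4 replicate 3 the list had 7 rises. Among 20 integrins and adhesion molecules, 9 rose and 1 fell. Itgb2, the shared beta chain of leukocyte integrins, had 302, 296 and 300.4 FPKM with e12.4, against 175, 183 and 178 FPKM with Renilla (log2 fold change 0.74, adjusted p = 0.00042), and Itgb7 had 110.3, 104 and 95.97 FPKM with e12.4, against 25.9, 20.8 and 43.9 FPKM with Renilla (log2 fold change 1.81, adjusted p = 0.002). The fall was Itgb1, the beta chain of matrix receptors, at 81.98, 79.996 and 80.03 FPKM with e12.4, against 105, 92.4 and 92.5 FPKM with Renilla (log2 fold change -0.25, adjusted p = 0.043), a call that was lost without any library. The replicate block added a rise of the integrin chain Itgav (adjusted p = 0.038) and a fall of the adhesion molecule Vcam1 (adjusted p = 0.036). Of 10 chemokines and chemoattractant receptors 4 rose: Ccl3, Ccl6, Ccl4 and Cxcr4. Ccl6 had 81.6, 89.99 and 116 FPKM with e12.4, against 19.4, 16.2 and 17.95 FPKM with Renilla (log2 fold change 2.35, adjusted p = 2.9e-06). Ccl4 and Cxcr4 were called with all libraries and not without Renilla replicate 1 or without an e12.4 library, which left 2 rises. Toll-like receptors and their adaptors had 4 rises among 16, namely Tlr1, Tlr2, Tlr7 and the adaptor Myd88. Myd88 had 35.6, 35.3 and 33.9 FPKM with e12.4, against 26.6, 25.1 and 25.1 FPKM with Renilla (log2 fold change 0.43, adjusted p = 0.0034).

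The interleukin-3 receptor changed in its shared chain. Csf2rb (chr15:78325752-78353847, + strand) had 109, 136 and 135 FPKM with e12.4, against 41.1, 50.4 and 47.9 FPKM with Renilla (log2 fold change 1.43, adjusted p = 9.7e-05), and Csf2rb2, the mouse copy specific to interleukin-3, had 17.2, 20.5 and 22.01 FPKM with e12.4, against 3.80, 5.45 and 5.54 FPKM with Renilla (log2 fold change 1.83, adjusted p = 7.1e-05). Both are near-identical in sequence, so reads may be split between them. The ligand-binding chain Il3ra had 50.8, 53.7 and 47.6 FPKM with e12.4, against 56.7, 44.5 and 43.02 FPKM with Renilla, and Csf2ra, the chain for GM-CSF, had 121, 138 and 142 FPKM with e12.4, against 119, 131 and 138 FPKM with Renilla. Groups overlapped for these alpha chains. Downstream, 7 of 23 tested JAK, STAT and feedback genes rose and none fell, with a median of 0.36. Cish, a feedback inhibitor switched on by STAT5, had 66.4, 78.1 and 92.6 FPKM with e12.4, against 17.6, 27.02 and 20.9 FPKM with Renilla (log2 fold change 1.82, adjusted p = 8.9e-05). Osm, the cytokine oncostatin M and a STAT5 target, had 25.3, 18.7 and 18.9 FPKM with e12.4, against 6.86, 5.92 and 6.76 FPKM with Renilla (log2 fold change 1.54, adjusted p = 9.9e-06). Socs2, Jak1, Pim2 and the phosphatase Ptpn6 had small rises, of 0.40, 0.36, 0.72 and 0.45 log2 units. Those 4 calls depended on single libraries: there were 4 rises without e12.4 replicate 1 or 2, and 3 without e12.4 replicate 3 or Renilla replicate 2. With the replicate block 11 genes of the list rose, Stat6, Socs1, Stat5b and Jak2 being added (adjusted p of 0.0022 to 0.041). The Cish promoter is shown because it holds the most matches of the list to the letters bound by STAT factors. Capitals mark TTCNNNGAA, which reads the same on both strands.

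Cish chr9:107296409-107296708: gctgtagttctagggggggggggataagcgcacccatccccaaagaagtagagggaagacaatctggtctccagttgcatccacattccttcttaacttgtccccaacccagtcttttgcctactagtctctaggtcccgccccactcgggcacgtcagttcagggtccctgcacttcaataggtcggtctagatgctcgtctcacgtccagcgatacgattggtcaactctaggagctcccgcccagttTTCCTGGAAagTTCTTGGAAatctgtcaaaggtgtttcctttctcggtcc

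The Cish window (RefSeq, GRCm38.p6, plus strand) holds 2 matches, TTCCTGGAA at 0 to 8 and TTCTTGGAA at 11 to 19 from the start site. That site is the RefSeq one, and the GENCODE gene start, 107296026, lies upstream of the window. At least 1 match lies in a promoter of 9.55% of the 27025 genes with a promoter sequence, and at least 2 in 0.54%. Matches lie in 8.37% of 8454 tested genes, in 60 of 483 genes called higher and in 19 of 138 called lower. In the list, 2 of 18 genes with a promoter in the table hold the letters, Cish and Socs3.

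Immediate-early genes and feedback inhibitors of RAS and MAPK signalling had 7 rises among 21 tested and no falls (median 0.45). Fos, an AP-1 subunit, had 10.1, 10.4 and 8.27 FPKM with e12.4, against 1.71, 1.61 and 2.73 FPKM with Renilla (log2 fold change 1.82, adjusted p = 0.0035). Ier3, an early response gene, had 16.2, 17.4 and 16.1 FPKM with e12.4, against 6.24, 5.24 and 6.39 FPKM with Renilla (log2 fold change 1.34, adjusted p = 0.00034). The phosphatases Dusp1 and Dusp5, which switch MAP kinases off, rose by 1.26 and 1.08 log2 units. Fosl2 and Ier5 rose as well, and 6 or 7 of the calls stood when single libraries were left out. NF-kB components and inflammatory targets had 5 rises among 16, none falling. Tnf had 7.14, 9.14 and 8.65 FPKM with e12.4, against 3.20, 3.17 and 4.96 FPKM with Renilla (log2 fold change 0.98, adjusted p = 0.0063). Tnfaip3 and Zfp36, which dampen this pathway and its messages, rose by 1.01 and 1.10 log2 units. Icam1 and Nfkbiz were the smaller calls, and leaving out any library brought the count to 3.

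Antigen presentation and interferon genes rose in part. Of 17 interferon-stimulated genes 6 rose and none fell. When single libraries were left out 5 to 6 rose, the lost call being Ifitm1. Ifitm3, a membrane protein that blocks viral entry, had 69.8, 73.4 and 73.4 FPKM with e12.4, against 28.1, 23.9 and 27.2 FPKM with Renilla (log2 fold change 1.42, adjusted p = 0.0037). Ifitm1 had 248, 241 and 226 FPKM with e12.4, against 86.4, 104 and 105 FPKM with Renilla (log2 fold change 1.27, adjusted p = 0.014). Zbp1, a sensor of Z-form nucleic acid, was at 3.69, 2.45 and 2.36 FPKM with e12.4, against 0.206, 0.356 and 0.153 FPKM with Renilla (log2 fold change 1.62, adjusted p = 1.7e-05). Some of the called genes are low in both groups, such as Irf7, which had 1.90, 1.55 and 1.71 FPKM with e12.4, against 0.321, 0.519 and 0.459 FPKM with Renilla. MHC class I genes had 4 rises among 14 tested. The light chain B2m had 391, 357 and 384 FPKM with e12.4, against 240.1, 254 and 272 FPKM with Renilla (log2 fold change 0.56, adjusted p = 0.026), H2-K1 had 173, 165 and 160.4 FPKM with e12.4, against 139, 119 and 111 FPKM with Renilla (log2 fold change 0.43, adjusted p = 0.02), and H2-T23 rose by 0.93 log2 units. H2 genes resemble each other closely, and 1 rise was left without e12.4 replicate 1 or Renilla replicate 2 and 2 without e12.4 replicate 2. In the class II list Cd74, the invariant chain, had 7.80, 7.94 and 7.29 FPKM with e12.4, against 1.43, 0.489 and 0.919 FPKM with Renilla and was not called (adjusted p = 0.067, and 0.035 with the replicate block), while Ctss and H2-DMa were, the second not without e12.4 replicate 1 or 2 or Renilla replicate 2 or 3.

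Lysosomal hydrolases and membrane proteins had 12 rises among 30 tested genes and no falls, with a median of 0.34. Leaving out single libraries gave 9 to 12 rises, the lost calls being Ctsa, Ctsb, Grn and Lgmn. Ctsc, which activates granule proteases, had 158, 158 and 162 FPKM with e12.4, against 70.5, 77.5 and 71.2 FPKM with Renilla (log2 fold change 1.11, adjusted p = 2.7e-05). Ctsd, the aspartic protease cathepsin D, had 386, 359.6 and 376 FPKM with e12.4, against 280.5, 228 and 207 FPKM with Renilla (log2 fold change 0.66, adjusted p = 0.002). Both transcripts were already abundant with Renilla. Tfeb, the factor that turns on lysosomal genes, had 9.73, 12.26 and 10.6 FPKM with e12.4, against 6.53, 5.64 and 6.07 FPKM with Renilla (log2 fold change 0.74, adjusted p = 0.003). The proton pump of the lysosome did not take part at this threshold: of 15 V-ATPase subunits none was called, and 2 had an unadjusted p under 0.05, both higher. Autophagy genes had 3 rises among 19: Wipi1 (0.82), Atg9a (0.59) and Map1lc3b (0.56). Of 7 subunits of the phagocyte oxidase Cybb alone was called.

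Actin and motility genes had 9 rises among 23 and no falls (median 0.44), most of them moderate. The called falls of Abi2, Actn1 and Pak1, given above, are of genes outside this list. Beside Lsp1 and Gsn, Fmnl1, a leukocyte formin that builds filaments, had 63.9, 70.8 and 68.3 FPKM with e12.4, against 33.2, 37.7 and 36.4 FPKM with Renilla (log2 fold change 0.90, adjusted p = 0.00014). Arpc5, a subunit of the Arp2/3 complex, had 229, 227 and 240.4 FPKM with e12.4, against 158, 164 and 168 FPKM with Renilla (log2 fold change 0.51, adjusted p = 0.0045). Msn and Ezr, moesin and ezrin, tie filaments to the membrane. Msn had 204, 209.6 and 202 FPKM with e12.4, against 141, 139 and 147 FPKM with Renilla (log2 fold change 0.52, adjusted p = 0.015), and Ezr had 79.3, 80.4 and 79.5 FPKM with e12.4, against 55.5, 59.9 and 65.6 FPKM with Renilla (log2 fold change 0.40, adjusted p = 0.014). Without e12.4 replicate 2 or Renilla replicate 2 the list had 5 rises.

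Some genes of arrest and cell death rose while genes of replication were not called. Of 15 p53 pathway genes 6 rose and none fell. Cdkn1a, the CDK inhibitor p21, had 119, 151 and 136 FPKM with e12.4, against 71.5, 75.8 and 64.3 FPKM with Renilla (log2 fold change 0.93, adjusted p = 0.00025). Trp53inp1 had 6.33, 8.04 and 7.40 FPKM with e12.4, against 1.59, 3.17 and 2.48 FPKM with Renilla (log2 fold change 1.30, adjusted p = 7.2e-05), and Mdm2, which degrades p53, had 57.8, 64.5 and 58.8 FPKM with e12.4, against 42.1, 45.4 and 46.3 FPKM with Renilla (log2 fold change 0.43, adjusted p = 0.012). Fas, Btg2 and Zmat3 rose by 0.87, 0.66 and 0.54 log2 units. Leaving out single libraries gave 4 to 6 rises in the p53 list, the lost calls being Mdm2 and Zmat3. The BCL2 family and caspases had 9 rises among 22, and these include proteins of both effects. Of those that protect cells, Bcl2 had 9.20, 8.09 and 8.48 FPKM with e12.4, against 5.40, 4.76 and 5.22 FPKM with Renilla (log2 fold change 0.65, adjusted p = 0.0013), and Mcl1 had 97.5, 86.6 and 89.4 FPKM with e12.4, against 68.97, 63.9 and 65.3 FPKM with Renilla (log2 fold change 0.46, adjusted p = 0.0032). Of those that promote death, Bcl2l11, which encodes BIM, had 18.5, 24.1 and 15.6 FPKM with e12.4, against 7.61, 11.98 and 11.2 FPKM with Renilla (log2 fold change 0.86, adjusted p = 0.022), and Bmf had 1.86, 2.14 and 2.03 FPKM with e12.4, against 0.289, 0.686 and 0.773 FPKM with Renilla (log2 fold change 0.94, adjusted p = 0.0018). Casp1, Casp4 and Casp6 rose by 0.66, 0.52 and 0.62 log2 units. Without e12.4 replicate 1, 2 or 3 the list had 3, 5 or 4 rises, and without Renilla replicate 2 or 3 it had 5. The calls of Bcl2, Bmf and Mcl1 stood throughout.

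Of the G1 regulators, Ccnd3, cyclin D3, had 213, 218 and 223 FPKM with e12.4, against 148, 145 and 154 FPKM with Renilla (log2 fold change 0.55, adjusted p = 0.00036). Its partner kinase Cdk4 fell to 293, 285 and 281 FPKM with e12.4, against 448, 374 and 350.1 FPKM with Renilla (log2 fold change -0.44, adjusted p = 0.032), a call lost without any library but Renilla replicate 3 (adjusted p up to 0.14). No gene of 31 DNA replication and S-phase genes was called, and 1 had an unadjusted p under 0.05, lower with e12.4. The median was 0.01, and -0.08 to 0.11 when single libraries were left out. No gene of 24 G2 and mitosis genes was called either (median -0.19), with 2 at an unadjusted p under 0.05, both lower, of which Cenpe, a kinetochore motor, was called with the replicate block (adjusted p = 0.017). Mki67, a marker of dividing cells, had 97.7, 91.2 and 94.02 FPKM with e12.4, against 74.3, 75.6 and 86.7 FPKM with Renilla, and Cdc20, an activator of mitotic exit, had 37.5, 33.7 and 35.7 FPKM with e12.4, against 56.7, 47.4 and 52.2 FPKM with Renilla. Their groups did not overlap, in opposite directions, at adjusted p of 0.33 and 0.2. Of the 24 G2 and mitosis genes, e12.4 lay wholly below Renilla in 11 and wholly above in 1. Over all tested genes the shares were 16.8% and 17.1%. The median of this list was -0.24 to -0.15 when single libraries were left out.

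Cholesterol synthesis and uptake was the metabolic list with the most rises, 6 of 25 tested genes with none falling (median 0.51). Fdft1, squalene synthase, had 49.7, 44.3 and 44.1 FPKM with e12.4, against 28.01, 23.99 and 28.3 FPKM with Renilla (log2 fold change 0.76, adjusted p = 0.0049). Mvd, a decarboxylase of the mevalonate pathway, had 78.7, 71.4 and 63.7 FPKM with e12.4, against 43.6, 30.7 and 35.4 FPKM with Renilla (log2 fold change 0.95, adjusted p = 0.0079). Sc5d, a sterol desaturase, had 44.2, 41.6 and 36.1 FPKM with e12.4, against 21.4, 18.9 and 24.7 FPKM with Renilla (log2 fold change 0.88, adjusted p = 0.0013). Hsd17b7 rose by 0.95 log2 units, a call lost without single libraries. Abcg1, which exports cholesterol, rose by 0.75, so the list holds genes of both synthesis and export. With the replicate 3 libraries of e12.3 and e21.1 out of the fit, 13 of the 25 genes were called higher, where 1016 of all 11550 were. With the replicate block 10 were, where 834 of all 11550 were, Sqle, Nsdhl, Msmo1 and Hmgcs1 being added (adjusted p of 0.014 to 0.041).

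Other metabolic changes were of single genes. Of 21 glycolysis and glucose transport genes 3 rose and 1 fell, all 4 being transporters. Slc2a3, a high-affinity glucose carrier, had 8.31, 13.1 and 11.1 FPKM with e12.4, against 1.28, 2.56 and 2.21 FPKM with Renilla (log2 fold change 1.97, adjusted p = 0.027). Slc16a1, a lactate carrier, had 9.36, 7.47 and 6.13 FPKM with e12.4, against 17.3, 13.9 and 12.6 FPKM with Renilla (log2 fold change -0.85, adjusted p = 0.039). Slc2a1 and Slc16a3 rose by 0.42 and 0.39, and none of the 4 kept its call without e12.4 replicate 2 or 3 or Renilla replicate 2 or 3. Cpt1a, which brings fatty acids into mitochondria, had 12.8, 11.9 and 11.6 FPKM with e12.4, against 6.56, 7.01 and 8.06 FPKM with Renilla (log2 fold change 0.68, adjusted p = 0.0013). Hmox1, which breaks down haem, had 18.9, 28.1 and 23.7 FPKM with e12.4, against 2.84, 4.36 and 4.46 FPKM with Renilla (log2 fold change 2.33, adjusted p = 0.00011), and its regulator Nfe2l2 had 22.4, 23.5 and 23.8 FPKM with e12.4, against 16.4, 18.6 and 17.7 FPKM with Renilla (log2 fold change 0.39, adjusted p = 0.027). Gsr, glutathione reductase, rose by 0.50. Without Renilla replicate 1 Hmox1 alone of these NRF2 genes was called.

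The falling pathways moved by small amounts and rested on few calls. In the ATF4 and amino acid stress list 3 of 21 genes fell and none rose, with a median of -0.42. In 18 of the 21 the e12.4 libraries lay wholly below the Renilla libraries, where 16.8% of all tested genes did. Psph had 25.3, 23.02 and 21.8 FPKM with e12.4, against 58.2, 43.9 and 40.8 FPKM with Renilla (log2 fold change -0.98, adjusted p = 0.033). Psat1 had 260.0, 270.4 and 253 FPKM with e12.4, against 416, 324 and 315 FPKM with Renilla (log2 fold change -0.42, adjusted p = 0.043), and Phgdh had 155, 141 and 128 FPKM with e12.4, against 304, 197 and 181 FPKM with Renilla, not called (adjusted p = 0.11). These 3 enzymes make serine from a glycolytic intermediate. Shmt2, which passes the serine carbon to folate, had 272, 278 and 265 FPKM with e12.4, against 344, 335 and 333 FPKM with Renilla (log2 fold change -0.31, adjusted p = 0.042). Atf4 itself had 325, 309.7 and 320.1 FPKM with e12.4, against 455, 353 and 387 FPKM with Renilla (adjusted p = 0.16). No call of the list was left without any e12.4 library or without Renilla replicate 1 or 2. With the replicate 3 libraries of e12.3 and e21.1 out of the fit, 13 of the 21 genes were called lower, where 526 of all 11550 were.

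Cytosolic aminoacyl-tRNA synthetases, which load tRNAs, had no call among 18, 11 at an unadjusted p under 0.05, all lower, and a median of -0.34. Eprs had 108, 102 and 101 FPKM with e12.4, against 175, 140.2 and 133 FPKM with Renilla, and Iars had 67.997, 66.8 and 67.9 FPKM with e12.4, against 90.4, 83.4 and 86.3 FPKM with Renilla. With the replicate 3 libraries of e12.3 and e21.1 out of the fit, 11 were called lower, where 526 of all 11550 genes were. With the replicate block 2 were, Iars (adjusted p = 0.029) and Eprs (adjusted p = 0.042), where 362 of all 11550 genes were. MYC targets and ribosome biogenesis factors had 2 falls among 34 (median -0.28), with e12.4 wholly below Renilla in 24 of them. Wdr12 and Wdr43 are needed to process ribosomal RNA. Wdr12 had 70.5, 56.4 and 65.5 FPKM with e12.4, against 98.8, 81.6 and 94.6 FPKM with Renilla (log2 fold change -0.51, adjusted p = 0.023), and Wdr43 had 47.6, 47.3 and 44.3 FPKM with e12.4, against 62.7, 57.6 and 58.3 FPKM with Renilla (log2 fold change -0.35, adjusted p = 0.022). With the replicate block 5 genes of the list fell, Mybbp1a, Rrs1 and Nat10 being added (adjusted p of 0.018 to 0.032). The calls of Wdr12 and Wdr43 were lost without e12.4 replicate 2 or 3 or Renilla replicate 1. In the fit without the replicate 3 libraries of e12.3 and e21.1, 10 falls were called, beside 526 of all 11550 genes. Myc itself had 106, 105 and 96.02 FPKM with e12.4, against 104, 106 and 115 FPKM with Renilla, with overlapping groups. The 32 cytosolic ribosomal proteins had no call and none at an unadjusted p under 0.05. Their median of -0.10 was 0.01 without Renilla replicate 1 and -0.17 without Renilla replicate 3. The 25 proteasome subunits had no call, 1 gene at an unadjusted p under 0.05 and a median of -0.16, which was -0.02 without Renilla replicate 1 and -0.24 without Renilla replicate 3. Of 21 chaperones of the endoplasmic reticulum and heat shock response 1 rose, Edem1 (log2 fold change 0.55, adjusted p = 0.015), which takes misfolded glycoproteins to degradation, and its call was lost without single libraries. With the replicate block the mitochondrial chaperones Hspe1 and Hspd1 were called lower (adjusted p = 0.027 and 0.03).

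The nuclear-encoded mitochondrial lists had medians a little below zero with e12.4 and few calls, and the mitochondrially encoded genes had one above zero. Of 20 citric acid cycle enzymes 2 fell, with a median of -0.23, or -0.14 without Renilla replicate 1. Dld, a shared subunit of the keto acid dehydrogenases, had 68.2, 74.7 and 72.1 FPKM with e12.4, against 93.9, 90.9 and 86.9 FPKM with Renilla (log2 fold change -0.33, adjusted p = 0.014). The replicate block gave 4 falls, Sdha and Suclg2 being added (adjusted p = 0.015 and 0.016). The count was 1 without e12.4 replicate 2 and 0 without e12.4 replicate 1 or 3 or Renilla replicate 1 or 2. Of 33 nuclear-encoded respiratory chain and ATP synthase subunits 1 fell (median -0.22, with -0.10 without Renilla replicate 1 and -0.34 without Renilla replicate 3). It was Ndufs1, a subunit of complex I, with 55.04, 48.8 and 52.2 FPKM with e12.4, against 79.1, 65.6 and 60.9 FPKM with Renilla (log2 fold change -0.38, adjusted p = 0.026). The count was 0 without e12.4 replicate 2 or 3 or Renilla replicate 1 or 2, and 6 without Renilla replicate 3. The replicate block gave 4. Mitochondrial ribosomal proteins had 1 fall among 21, Mrpl3, at 63.1, 59.5 and 53.1 FPKM with e12.4, against 103, 71.8 and 71.999 FPKM with Renilla (log2 fold change -0.47, adjusted p = 0.031). That list had no fall without e12.4 replicate 2 or 3 or Renilla replicate 1, and 2 without Renilla replicate 2. The replicate block gave 3 falls. In Mrpl3, Ndufs1 and Psph alike, Renilla replicate 1 was the highest Renilla library. That library had a median of 0.21 above the Renilla mean over the respiratory chain list, and -0.74 over the 13 mitochondrially encoded genes. Mitochondrially encoded genes had a median of 0.63 with e12.4 against Renilla and 0.18 without Renilla replicate 1, with no call and 7 at an unadjusted p under 0.05. For mt-Nd4 the values were 1413, 1345 and 1494 FPKM with e12.4, against 273, 1247 and 1277 FPKM with Renilla. Whether RNA quality has a part in these values was not tested.

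**Figure D4:**
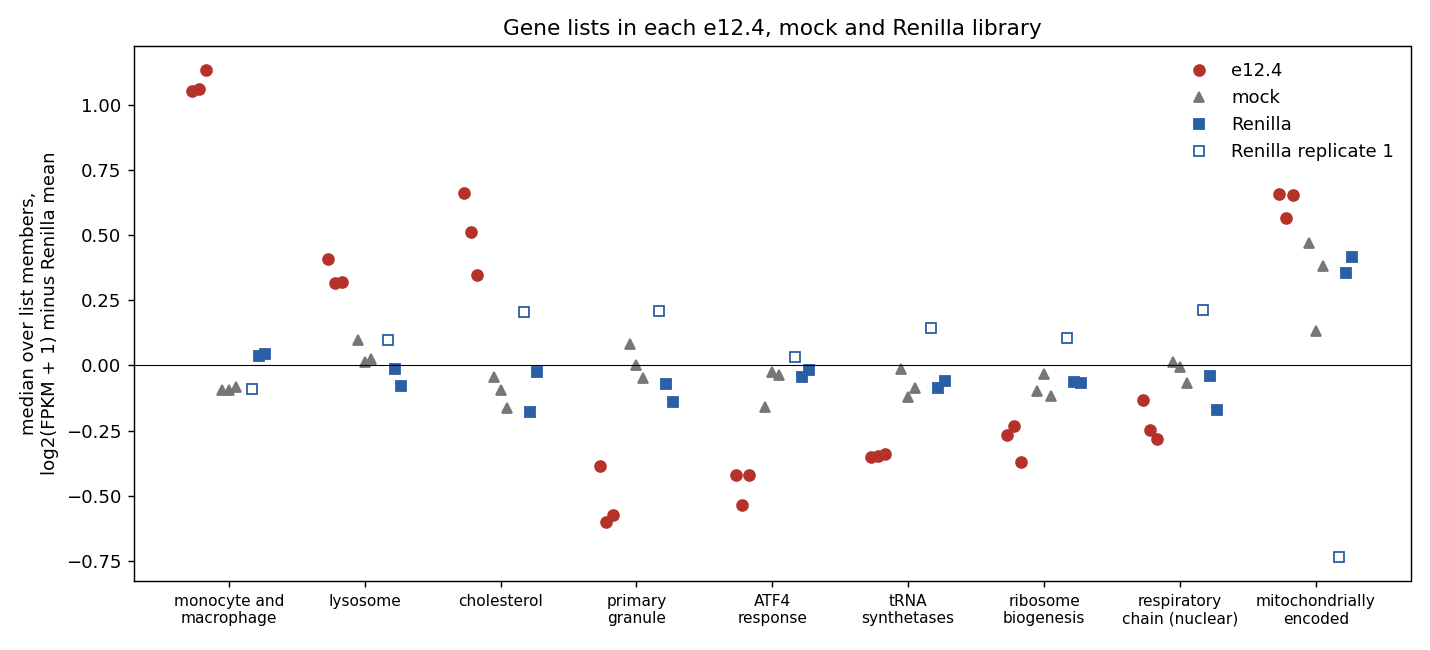
For 9 gene lists, the median over members of log2(FPKM + 1) minus the Renilla mean is drawn for each e12.4 library (circles), mock library (triangles) and Renilla library (squares, with replicate 1 open). The e12.4 libraries lie apart from all mock and Renilla libraries in the monocyte list, at 1.05 to 1.13, and in the ATF4 and synthetase lists, while Renilla replicate 1 stands away from the other controls at -0.74 for mitochondrially encoded genes.

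Nucleotide and polyamine genes gave a few further falls. Impdh1, which feeds guanine nucleotide synthesis, had 6.59, 6.46 and 5.84 FPKM with e12.4, against 11.2, 9.06 and 9.97 FPKM with Renilla (log2 fold change -0.60, adjusted p = 0.025), and it was the only call among 17 (median -0.25, with -0.15 without Renilla replicate 1 and -0.38 without Renilla replicate 3), where the replicate block added Gmps, Impdh2 and Ctps (adjusted p of 0.012 to 0.046). Sms, spermine synthase, had 33.5, 34.1 and 33.3 FPKM with e12.4, against 49.6, 42.2 and 42.9 FPKM with Renilla (log2 fold change -0.40, adjusted p = 0.03). With Shmt2 it made 2 falls among 14 genes of polyamine and one-carbon metabolism. Calls of all 3 genes were lost without e12.4 replicate 1, 2 or 3 or Renilla replicate 1.

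H3K9 methyltransferases, demethylases and HP1 proteins had 1 rise and 1 fall among 21 tested. The fall was Suv39h2, given above, and the rise was Kdm7a, a demethylase of H3K9 and H3K27, at 4.45, 4.86 and 5.14 FPKM with e12.4, against 1.89, 2.17 and 2.28 FPKM with Renilla (log2 fold change 0.90, adjusted p = 0.0073). Both calls stood without each library. MLL-fusion targets and leukaemia stem cell genes had 2 rises among 18, Bcl2 and Cpeb2, and a median of -0.02, or -0.08 to 0.09 when single libraries were left out. Cpeb2, which binds messenger RNA, had 17.5, 19.5 and 16.02 FPKM with e12.4, against 6.01, 8.74 and 8.98 FPKM with Renilla (log2 fold change 1.08, adjusted p = 0.014), and it was not called without e12.4 replicate 2 or Renilla replicate 1. Stem and progenitor genes had 1 rise and 1 fall among 11. Cd93, a surface glycoprotein of progenitors and monocytes, had 96.3, 94.1 and 94.8 FPKM with e12.4, against 49.2, 51.5 and 47.3 FPKM with Renilla (log2 fold change 0.93, adjusted p = 0.006). Muc13, a membrane mucin, fell to 8.70, 6.49 and 7.92 FPKM with e12.4, against 14.3, 13.02 and 17.4 FPKM with Renilla (log2 fold change -0.87, adjusted p = 0.0078). That fall was not called without e12.4 replicate 2. Cd34 had 237, 237 and 229 FPKM with e12.4, against 120.1, 142 and 142 FPKM with Renilla, groups that are far apart with an adjusted p of 0.16.

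Markers of other cell types were mostly low. No B cell marker was tested, and all 8 together summed to 1.25 to 1.73 FPKM in e12.4 libraries and 1.38 to 2.503 FPKM in Renilla libraries. Of 9 erythroid markers 2 were tested and none called, with summed levels of 7.29 to 11.5 FPKM with e12.4 and 13.996 to 16.6 FPKM with Renilla. Alas2 and the T cell gene Cd2 were at 0 in all 6 libraries. Mast cell, basophil and eosinophil markers summed to 83.0 to 92.6 FPKM with e12.4 and 111 to 134 FPKM with Renilla, with none of 7 called. In 3 of the 7 e12.4 lay wholly below Renilla, where 16.8% of all tested genes did, and in none wholly above. The highest were Hdc and Gata2. Hdc had 41.96, 34.3 and 36.8 FPKM with e12.4, against 82.4, 57.3 and 64.2 FPKM with Renilla. Gata2 had 25.3, 29.9 and 28.8 FPKM with e12.4, against 21.2, 27.3 and 26.3 FPKM with Renilla. T and NK cell markers (3.75 to 4.76 FPKM with e12.4, 4.94 to 6.82 FPKM with Renilla) and dendritic cell markers (32.0 to 35.8 FPKM with e12.4, 23.2 to 35.5 FPKM with Renilla) had none called of 2 tested in each list. The megakaryocyte list had 1 call of 2, the integrin chain Itgb3, at 28.3, 25.3 and 25.1 FPKM with e12.4, against 6.90, 5.73 and 5.74 FPKM with Renilla (log2 fold change 1.94, adjusted p = 0.00014). Its platelet-defining members Pf4 and Gp9 were under 1.5 FPKM in each library. The other tested member, Itga2b, had 12.25, 11.5 and 10.8 FPKM with e12.4, against 10.9, 10.2 and 9.16 FPKM with Renilla. It was not called. The stromal and endothelial list had 1 call of 2, Pecam1, which leukocytes also carry, at 12.9, 12.8 and 12.41 FPKM with e12.4, against 7.82, 6.66 and 6.47 FPKM with Renilla (log2 fold change 0.78, adjusted p = 0.0032).

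Set against the mean of the other Jmjd1c guides, which is a contrast without Renilla libraries, e12.4 had no called gene of 11550 in limma-trend (0% of tested genes), and 263 genes had an unadjusted p under 0.05, where 578 would by chance. Against e12.3, e20.1 and e21.1 singly the calls were also 0, with 414, 149 and 369 genes at an unadjusted p under 0.05. The intervals still leave room for differences. Intervals of genes picked here by the smallest p are not adjusted for that choice, so their lying off zero does not show a difference. Igfbp4, the gene with the smallest p, had 68.03, 66.4 and 64.6 FPKM with e12.4 and 68.3 to 102 FPKM in the other 9 guide libraries, a log2 difference of -0.40 (95% interval -0.59 to -0.20, limma adjusted p = 0.94). Mpo was lower with e12.4 than with the other guides on average, 151 ± 26.96 FPKM with e12.4 against 595 ± 372 with e12.3, 304 ± 39.5 with e20.1 and 329 ± 290.5 FPKM with e21.1 (SD, n = 3 each). The log2 difference was -1.20 (95% interval -1.97 to -0.43, limma adjusted p = 0.94), and the libraries overlapped. The replicate 3 libraries that stand apart raise these averages, at 1024.6 FPKM with e12.3 and 664 FPKM with e21.1. Replicates 1 and 2 had 377 and 384 FPKM with e12.3. With e21.1 they had 178 and 146 FPKM, within the e12.4 range. Bud13, a splicing factor, and Asl, argininosuccinate lyase, lay below all other guide libraries at log2 differences of -0.35 and -0.31. Adam3 and Tmem110 had differences of -0.37 and -0.23.

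In the other direction, Slc40a1, the iron exporter ferroportin, had 22.04, 19.8 and 20.4 FPKM with e12.4 and 10.2 to 18.5 FPKM with the other guides (log2 difference 0.47, 95% interval 0.19 to 0.75, limma adjusted p = 0.94). Nt5e, the surface enzyme CD73 that makes adenosine, had 80.1, 87.7 and 88.7 FPKM with e12.4 and 37.5 to 76.1 FPKM with the other guides (log2 difference 0.52, 95% interval 0.19 to 0.85, limma adjusted p = 0.94). Against Renilla, at 15.6, 13.98 and 14.99 FPKM, it was a called rise (log2 fold change 2.45, adjusted p = 1.9e-06). Ets1, a lymphoid and myeloid transcription factor, Sept11, a septin, and Scrn3 had differences of 0.36, 0.21 and 0.33 from the other guides, none called. Ctss, the rise with the smallest p, differed from the other guides by -0.19 (95% interval -0.55 to 0.17). Medians of the lists against the same Renilla libraries, which all guides share, are given side by side: the monocyte list had 1.11 with e12.4, 0.78 with e12.3, 1.18 with e20.1 and 1.10 with e21.1. The primary granule list had -0.50 with e12.4, -0.34 with e12.3, -0.38 with e20.1 and -0.61 with e21.1.

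**Figure D5:**
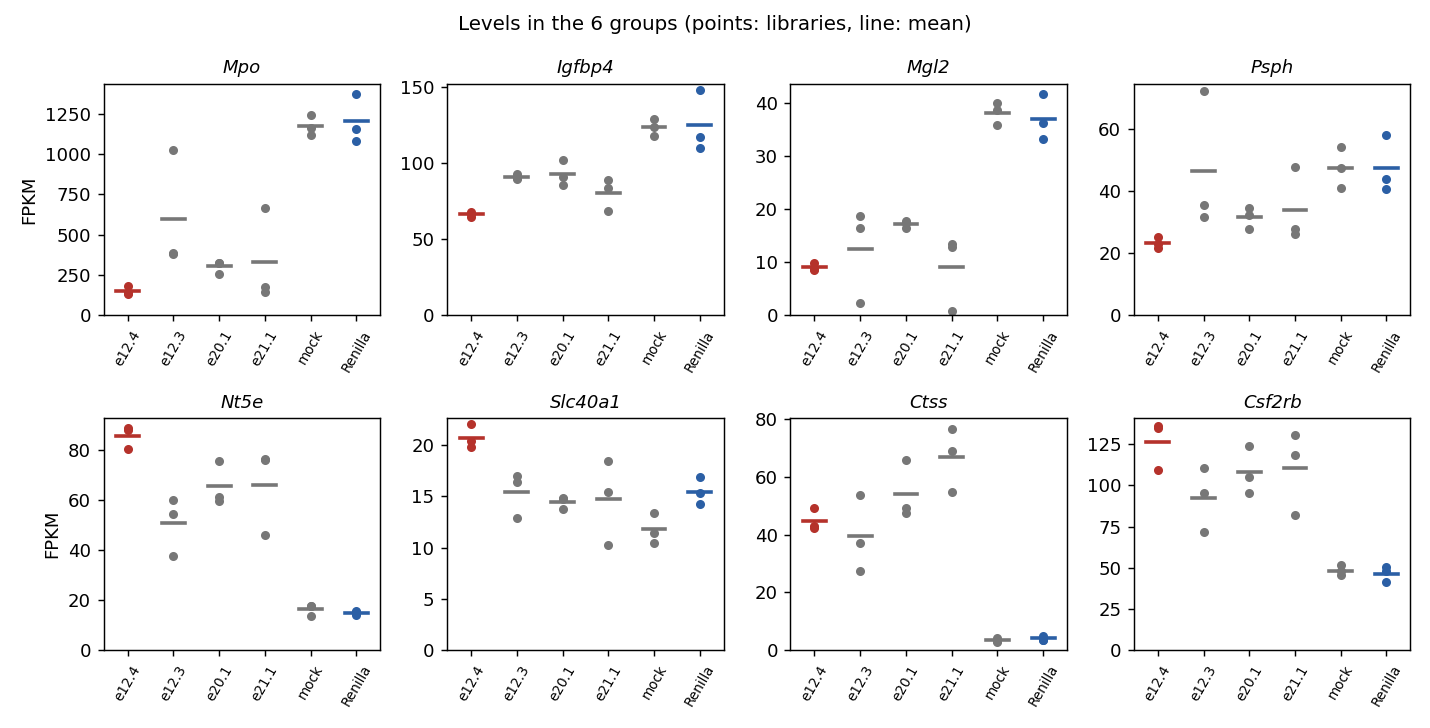
Level in FPKM of 8 genes in the 6 groups of 3 libraries (points, with the mean as a line), e12.4 at the left and Renilla at the right. Mpo and Igfbp4 are lowest on average with e12.4, Nt5e is highest with it, and Ctss and Csf2rb lie above mock and Renilla with each Jmjd1c guide. For Mpo, replicates 1 and 2 of e21.1 lie within the e12.4 range.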

How the data were processed

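Poly(A) RNA libraries of 3 e12.4 and 3 Renilla samples were analysed within a table of 18 libraries and 23899 genes. The authors deposited FPKM, scaled for transcript length and depth. Per the submitters' processing notes, the tools were bcl2fastq 2.22.0.422, Salmon 0.13.0 on mm10, R 3.5.3 and DESeq2 1.22.1; the sources used here give no parameters. Per the labels' protocols, RNA was extracted with TRIzol and libraries were made with a directional kit. Values in the tables deposited per library matched the series table within 3.3e-06 FPKM for the guide and Renilla libraries. Mock libraries were not compared. In each table compared, 25 gene names differed from those of the series table.

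Values were taken as log2(FPKM + 1). A limma-trend model (limma 3.58.1 in R 4.3.3) of the 6 group means was fitted to the 11550 genes that averaged 1 FPKM or more, with Benjamini-Hochberg adjustment over all of them and a threshold of 0.05. Count tests were not used, since the table holds no counts. Jmjd1c was also tested by exact permutation. Figures and tables used Python 3.11.15, numpy 2.4.6, pandas 2.3.3 and matplotlib 3.10.9. The fit was tested on simulated data.

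For depth, FPKM was multiplied by length in 1473 single-transcript genes of at least 2000 bases, and the step between low values was taken as 1 read. In the e12.4 and Renilla libraries, 89.0 to 96.5% of low values were whole reads within 0.1, against 20% for evenly spread values. Positions are from GENCODE vM21 (GRCm38), where 98.92% of symbols were found, and promoters from RefSeq.

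The named genes are the 12 called genes with the largest changes in each direction at a mean of at least 5 FPKM without overlap of the groups (gene models and pseudogenes skipped), the 10 called moderate changes (0.5 to 1) with the smallest p in each direction, up to 6 members of each list with the smallest p, and the 6 with the smallest p in each direction against the other guides. Other named genes (further called list members, Hoxa9, Meis1, Spi1, Myc, Elane, Mgl2, Cd34 and markers among them) were chosen after their values were seen. A few genes that these rules name are not reported here. The comparison, the 53 gene lists and these rules were chosen with earlier results of these data known.

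Same-numbered e12.4 and Renilla libraries deviate together from their group means (correlations across genes of 0.331, 0.236 and 0.261), so the numbers pair the samples by the criterion that every correlation is over 0.1; the labels do not say what a number marks.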

Additional observations from a re-analysis of the deposited data

How the results depend on the processing

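Each called gene among the named genes and list members kept its direction under each alternative. The count of 819 calls was 1542 without the replicate 3 libraries of e12.3 and e21.1 (1016 higher, 526 lower, all 819 among them) and 3908 with array quality weights, where 51.2% were higher in place of 78.5%; the cause was not tested. Leaving out each e12.4 or Renilla library gave 491 to 638 calls, the fewest without e12.4 replicate 2 (437 higher, 54 lower), with 546 without Renilla replicate 1 (487 higher, 59 lower). The replicate block, which pairs libraries by number, gave 1196 calls (834 higher, 362 lower): of 196 calls among named genes and list members it lost 0, and it added 45 genes, with the report giving the counts and calls these move; it changed no other call. Of the same 196 calls, 42 to 58 were lost when single libraries were left out, 34 without a filter on low values, 28 with mock as control and 15 with only the e12.4 and Renilla libraries. Within 1.5 times were pseudocount 0.1 (823), no filter on low values (784), at least 5 FPKM in 3 libraries (689), only the e12.4 and Renilla libraries (1156), upper-quartile scaling (841), mock as control (748) and Renilla with mock as control (1171).

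Against the other guides the count of 0 became 1 without a filter on low values (Phyhip, higher, 0.175, 0.178 and 0.171 FPKM with e12.4) and 1 without the replicate 3 libraries of e12.3 and e21.1 (Mgl2, lower, log2 difference -0.75, adjusted p = 0.0022). In those omitted libraries Mgl2 had 2.31 and 0.854 FPKM, below the 8.51 to 9.78 FPKM of e12.4, so e12.4 was not the lowest for Mgl2. The replicate block left the count at 0. The difference in Jmjd1c stayed between -0.32 and -0.10 when single libraries were left out. Genes that averaged under 1 FPKM over the 18 libraries were left out by the chosen filter and were not tested in the main fit.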

Other observations

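Besides Ctss, the 5 genes with the smallest p with e12.4 against Renilla belong to no list above, and they are named here after their values were seen. Rara, the retinoic acid receptor alpha, had 20.5, 23.1 and 22.2 FPKM with e12.4, against 3.73, 5.004 and 5.14 FPKM with Renilla (log2 fold change 2.03, adjusted p = 3.5e-07). Dhrs3, which reduces retinaldehyde to retinol, had 7.62, 9.69 and 8.48 FPKM with e12.4, against 0.718, 0.993 and 1.28 FPKM with Renilla (log2 fold change 2.27, adjusted p = 5.0e-07). Both genes stood far above the controls, where mock stood at 3.85, 4.86 and 4.12 FPKM for Rara and 0.88, 1.06 and 0.607 FPKM for Dhrs3. The related receptors Rarg and Rxrb had log2 fold changes of 0.15 and -0.21 and were not called. Tpd52, a protein of membrane traffic, had 20.4, 21.3 and 23.6 FPKM with e12.4, against 4.09, 4.88 and 5.14 FPKM with Renilla (mean 4.62-fold higher with e12.4, adjusted p = 3.5e-07). Chn2, a Rac GTPase-activating protein, had 12.7, 14.8 and 12.1 FPKM with e12.4, against 2.65, 2.55 and 2.99 FPKM with Renilla (log2 fold change 1.93, adjusted p = 3.5e-07), and Sema4d, a semaphorin of leukocytes, had 34.9, 38.9 and 33.7 FPKM with e12.4, against 7.12, 8.16 and 7.07 FPKM with Renilla (log2 fold change 2.12, adjusted p = 5.0e-07). In the other 9 guide libraries Rara ranged over 13.6 to 28.6 FPKM and Dhrs3 over 6.17 to 11.4 FPKM, and neither differed from e12.4 at the threshold (log2 differences 0.11 and 0.01).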
